A study of Mus musculus with 2 samples.

Results

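Acute-phase proteins were described here by 8 genes, Saa3, Orm1, Orm2, Hp, Hpx, Ptx3, Fgl2 and Itih4, in mouse spleen remodelled with silica. The members were taken by name: every array probe whose accession maps to one of the 8 symbols was kept, and the brightest probe stood for the gene. All 8 had a probe well above background on both arrays, out of 16774 named genes above background on at least 1 array and 20649 named genes in all. A pool of SiO2-remodelled spleens and a pool of spleens treated with PBS were each hybridised to an Agilent array in a single colour, 2 arrays in all. Each pool held 5 spleens of female mice, harvested on day 19 after the first injection, and both groups received the same RNA preparation with a blood kit that lyses red and white cells separately and with globin message removed. Strain and age are not given in the labels used here. A pool on 1 array has no replicate, so no test between the groups was possible and the spread between animals is unknown. The 12 B cell markers and the 12 T cell markers represented on the arrays were all above background in both pools.

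Acute-phase proteins are plasma proteins whose production changes during infection or injury. Most come from hepatocytes, where interleukin 6 acts through STAT3, and interleukin 1 and tumour necrosis factor through C/EBP and NF-kB factors. Some are also made outside the liver. In the mouse Saa3 is produced by macrophages, fat and epithelium, haptoglobin and Ptx3 are stored in neutrophil granules, and Fgl2 is made by macrophages, endothelium and regulatory T cells.

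The sequences upstream of 3 members are shown because they belong to Saa3 and Fgl2, which differed at least 2-fold between the pools, and to Orm2, the close paralogue of Orm1. Each run holds the 250 bases before the gene's start in RefSeq, assembly GRCm38.p6, 5′ to 3′ on the gene's strand. Capitals mark matches to 5 motifs sought on both strands from 250 bases before to 50 bases after the start.
Saa3 (chr7:46715677-46715926, minus strand): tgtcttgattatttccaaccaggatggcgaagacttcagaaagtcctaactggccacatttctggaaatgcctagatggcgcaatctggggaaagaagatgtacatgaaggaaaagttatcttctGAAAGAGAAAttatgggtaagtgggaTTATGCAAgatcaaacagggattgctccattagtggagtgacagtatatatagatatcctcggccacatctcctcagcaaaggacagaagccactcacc
Orm2 (chr4:63362199-63362448, plus strand): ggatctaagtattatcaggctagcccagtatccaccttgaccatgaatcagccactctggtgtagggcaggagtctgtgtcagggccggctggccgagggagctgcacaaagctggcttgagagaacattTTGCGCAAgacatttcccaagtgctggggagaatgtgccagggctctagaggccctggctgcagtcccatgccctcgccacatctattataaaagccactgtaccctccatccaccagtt
Fgl2 (chr5:21372423-21372672, plus strand): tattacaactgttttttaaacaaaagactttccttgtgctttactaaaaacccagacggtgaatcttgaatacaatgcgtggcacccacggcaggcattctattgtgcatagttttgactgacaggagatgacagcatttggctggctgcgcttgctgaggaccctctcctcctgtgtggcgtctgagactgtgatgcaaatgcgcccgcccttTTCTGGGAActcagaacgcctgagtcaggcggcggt

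The motifs sought were TTGCNNAA (C/EBP), TTCNNNGAA (STAT), CTGGGAA (an IL-6 response element, which in Fgl2 lies inside the STAT match), an interferon response element (GAAA, any 2 bases, GAAA) and an NF-kB motif (GGG, any 5 bases, CC). RefSeq promoters were at hand for 6 of the 8 members, Saa3, Orm2, Hpx, Ptx3, Fgl2 and Itih4. The C/EBP motif was found in 4 of these, Saa3, Orm2, Hpx and Ptx3, and in 10.8% of all 32851 promoters of this length. In Saa3 it reads TTATGCAA and in Orm2 TTGCGCAA, which is its own reverse complement. The STAT motif was found in Fgl2 and Itih4 and in 8.3% of all promoters, the IL-6 response element in Fgl2 and in 11.1%, and the interferon motif in Saa3 and in 3.44%. The NF-kB letters were found in Ptx3 and Itih4 and in 50.8% of all promoters. These matches describe letters and are no evidence of binding.

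In the SiO2 pool Orm1 and Saa3 were higher, at 3.04-fold and 2.77-fold, and Fgl2 was lower, at 2.47-fold. The other 5 members differed by less than 2-fold, with Hp, whose spots were bright, at 1.38-fold higher. Of the 8 members 2 were thus at least 2-fold higher, against a background of 6.62% of all named genes, and 1 was at least 2-fold lower, against 3.7%. With 8 genes these counts are too small to set the group apart. Each difference is SiO2 minus PBS on the log2 scale, after each array was divided by its 75th percentile signal. The median difference was 0.57 over the members, beside 0.03 over all named genes. Less RNA per cell and fewer cells of a type cannot be told apart in pooled tissue.

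The signals themselves separate the members into those far above background and those near it. Hp and Fgl2 gave strong spots. The other 6 members, Saa3, Orm1, Orm2, Hpx, Ptx3 and Itih4, had processed signals of 9.87 to 34.7 in the SiO2 pool and of 11.6 to 27.9 in the PBS pool. The lowest signal that the software called well above background was 6.14 on the SiO2 array and 7.37 on the PBS array. Raw spot signals of these 6 lay between 25.5 and 51 in the SiO2 pool and between 31 and 45 in the PBS pool, while the brightest of the negative-control spots reached 20 on the SiO2 array and 21 on the PBS array. All 8 members were thus above every negative control, the 6 dim ones by a narrow margin.

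**Figure D1:**
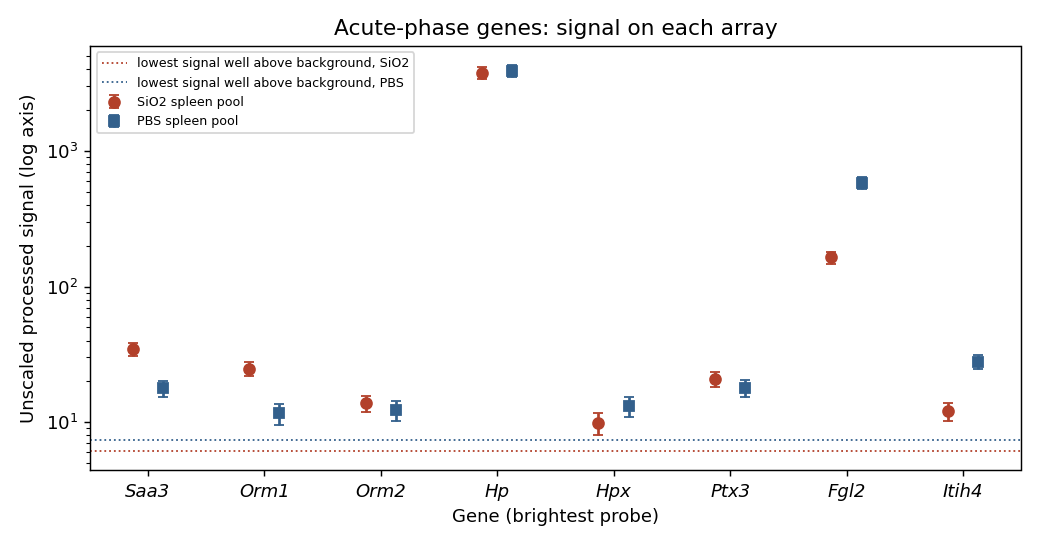
Unscaled processed signal (log axis) of the brightest probe of each acute-phase gene in the SiO2 pool (circles) and the PBS pool (squares), 1 spot each, with the software's error estimate as bars and dotted lines at the lowest signal well above background, 6.14 for SiO2 and 7.37 for PBS. Hp and Fgl2 stand far above the dotted lines, and the other 6 genes lie between 9.87 and 34.7; levels of different probes are not comparable.

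The arrays differed in overall brightness. The 75th percentile of the signal was 469 on the SiO2 array and 670 on the PBS array, so scaling added 0.51 to every log2 difference. The error of a single spot could be given in 2 ways. The software's own estimate for the log2 difference was 0.25 to 0.36 for the 6 dim members and 0.20 for Hp and for Fgl2. Among 35 repeated probes as dim as these members (both signals between 8 and 40, a range set after seeing the data), the SD of a single-spot difference had a median of 0.27, a 95th percentile of 0.43 and a highest value of 0.96. Among all 383 repeated probes, of any signal, the median was 0.10, the 95th percentile 0.74 and the highest value 1.15. These measures cover spots, not animals, pools or labelling.

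Dim genes also lay higher as a class. The 2586 named genes in that signal range had a median difference of 0.27, with 5.18% of them past 2-fold on the higher side and 1.12% on the lower side. The 6 dim members had a median of 0.70, with 2 at least 2-fold higher and 0 lower.

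Saa3 encodes serum amyloid A3, an inflammation-induced apolipoprotein of macrophages and stroma in the mouse. Its probe, A_55_P1953169, gave a signal of 34.7 ± 3.7 in the SiO2 pool and 17.9 ± 2.4 in the PBS pool (software error, 1 spot each). The signal was higher in the SiO2 pool even before scaling, by 0.96 on the log2 scale, and by 1.47 after it. This is 5.87 times the software's error, and 1.55% of the dim genes and 2.61% of all named genes had a larger difference. With normexp background correction, an alternative that adds an offset of 50 to every signal before scaling, it was 0.77. Dim differences are compressed by that alternative, but not always toward 0. Hpx went from 0.09 to 0.38, and the median over all named genes from 0.03 to 0.17. Without scaling and with normexp Saa3 was thus under 2-fold.

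The other serum amyloid genes sit beside Saa3 on the same chromosome. Saa1, a liver acute-phase apolipoprotein, had a signal of 91.3 in the SiO2 pool and 72.3 in the PBS pool, a scaled difference of 0.85. Saa4, the constitutive member, had a signal of 5.94 in the SiO2 pool, not well above background, and of 12.8 in the PBS pool, at least 1.47-fold lower. Saa2 was not above background on either array. Of these genes Saa3 was past 2-fold and Saa1 was not, while Saa4 has a bound only. Saa1 and Saa2 are near-identical in sequence, and how far their probes tell them apart was not tested.

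Orm1 and Orm2 encode orosomucoids, the alpha-1-acid glycoproteins, plasma lipocalins that bind lipids and drugs. Orm1 had a signal of 24.8 ± 2.8 in the SiO2 pool and 11.6 ± 2.0 in the PBS pool. Its scaled difference of 1.60 was the highest of the 8 members and 5.36 times its software error. A larger one was seen in 0.93% of the dim genes and 1.99% of all named genes. Before scaling the Orm1 difference was 1.09, and under normexp 0.72.

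Orm2, which lies near it on the chromosome, had nearly the same signal in both pools, 13.8 ± 1.9 in the SiO2 pool and 12.3 ± 2.0 in the PBS pool. Its scaled difference was 0.67, or 2.15 times its software error. Without scaling it was 0.16, so most of that difference comes from the 0.51 that scaling adds. With B and T cell genes set to a median difference of 0 it was 1.04 and past 2-fold. Orm3, which lies between these genes, had a signal of 2.92 in the SiO2 pool, not well above background, and 7.68 in the PBS pool, and no fold is given. The 3 orosomucoids are close paralogues, and whether the probe of one also takes up RNA of another was not tested.

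Hp and Hpx clear the products of red cell breakdown. Hp, haptoglobin, binds free haemoglobin, and its probe read 3773 ± 377 in the SiO2 pool and 3889 ± 389 in the PBS pool. The unscaled signals differed by less than the software's error, at -0.04 on the log2 scale, and the scaled difference was 0.47. Whether Hp was higher thus turns on the scaling. It lay between 0.38 and 0.45 with median scaling, quantile normalization, cyclic loess and the authors' deposited table. With B and T cell genes set to a median difference of 0 it was 0.83, and without scaling it was below 0. In no alternative did it reach 2-fold.

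Hpx, haemopexin, binds free haem. Its signal was 9.87 ± 1.79 in the SiO2 pool and 13.2 ± 2.2 in the PBS pool, the scaled difference was 0.09, and this is 0.26 times its error. Its sign changed with the processing, from -0.42 without scaling to 0.46 with B and T cell genes set to a median difference of 0. A difference in Hpx was not detectable at this signal.

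The haem and haemoglobin receptors and enzymes downstream were measured as well. Cd163, the haptoglobin-haemoglobin receptor, had a difference of -0.37, from a signal of 15.2 in the SiO2 pool and 28.1 in the PBS pool. Lrp1, the haemopexin receptor, was at -0.40, the haem-degrading enzyme Hmox1 at -0.79 and the iron exporter Slc40a1 at -0.22. None of the 4 reached 2-fold. Erythroid genes were higher beside them, with 10 of 12 higher by 2-fold or more and a summed signal, in units of the 75th percentile, of 239 in the SiO2 pool and 113 in the PBS pool. Their part in the haptoglobin and haemopexin values was not tested.

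Ptx3 encodes the long pentraxin, a soluble pattern recognition protein of myeloid and stromal cells. It read 20.8 ± 2.6 in the SiO2 pool and 17.9 ± 2.6 in the PBS pool, and its scaled difference was 0.73, or 2.67 times its software error. Unscaled it was 0.21, with B and T cell genes set to 0 it was 1.09 and past 2-fold, and in the authors' deposited table it was 0.59. Tnfaip6, a hyaluronan-binding partner of Ptx3, was 2.07-fold lower, with a signal of 22.5 in the SiO2 pool and 66.4 in the PBS pool. These are values of the brightest of its 3 probes above background on at least 1 array, and the other probes are not reported here. Crp, a short pentraxin of the same family, was not above background on either array.

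Fgl2 encodes a fibrinogen-like protein that acts on the cell membrane as a prothrombinase and in secreted form as a ligand of Fc gamma receptors. It was the member with the lowest difference. Its signal was 164 ± 16 in the SiO2 pool and 579 ± 58 in the PBS pool, a scaled difference of -1.31 or 6.39 times its software error, and 1.81% of all named genes had a lower one. Before scaling the difference was -1.82, under normexp -1.13 and in the authors' deposited table -1.35. With B and T cell genes set to a median of 0, an alternative added after seeing the data, it was -0.94 and under 2-fold.

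The Fc receptors that bind secreted FGL2 did not differ 2-fold, with Fcgr2b at 0.29 and Fcgr3 at 0.32. Fgl1, the hepatocyte relative of Fgl2, had a difference of -0.41 at a signal of 12.9 in the SiO2 pool and 24.5 in the PBS pool. Fgl2 is an interferon-inducible gene of macrophages. Most genes of the interferon-stimulated list and of the macrophage and monocyte list were lower in the SiO2 pool. Of 19 interferon-stimulated genes above background 16 were lower by 2-fold or more and 1 was higher. Their median was -1.80, and their summed signal in units of the 75th percentile (summed scaled signal) was 71.5 in the SiO2 pool and 179 in the PBS pool. Among them were Zbp1, a nucleic acid sensor, at 6.06-fold lower, Oas2 at 5.88-fold and Ifi44 at 5.27-fold. Of 13 macrophage and monocyte genes 4 were lower by 2-fold or more and 0 were higher. Their median was -0.78, with a summed scaled signal of 56.4 in the SiO2 pool and 103 in the PBS pool. The largest of these were the Fc receptor Fcgr1 at 4.04-fold, Aif1 at 2.83-fold and the red pulp factor Spic at 2.80-fold lower. In the macrophage and monocyte list Itgam (0.59) and Lyz2 (0.45) lay above 0, and so did all 13 genes of lipid-laden phagocytes. The part of any of these lists in the Fgl2 value was not tested.

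Itih4 encodes a heavy chain of the inter-alpha-trypsin inhibitor family, a plasma protein of the liver, and was the 1 member with several probes. The brighter probe, A_55_P2077055, read 12.0 ± 1.9 in the SiO2 pool and 27.9 ± 3.3 in the PBS pool, a difference of -0.70. The other, A_55_P2077053, read 8.08 ± 1.67 in the SiO2 pool and 7.78 ± 1.88 in the PBS pool, where it was not well above background, and gave 0.57. The probes had opposite signs, and the authors' deposited table, which holds the dimmer probe, gave 0.36. With normexp the Itih4 difference was 0.20, and with the mean over probes -0.07, so no direction is given for Itih4. Its relatives Itih1, Itih2, Itih3 and Itih5 lay at 0.90, 0.04, -0.36 and -0.57, all within 2-fold.

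**Figure D2:**
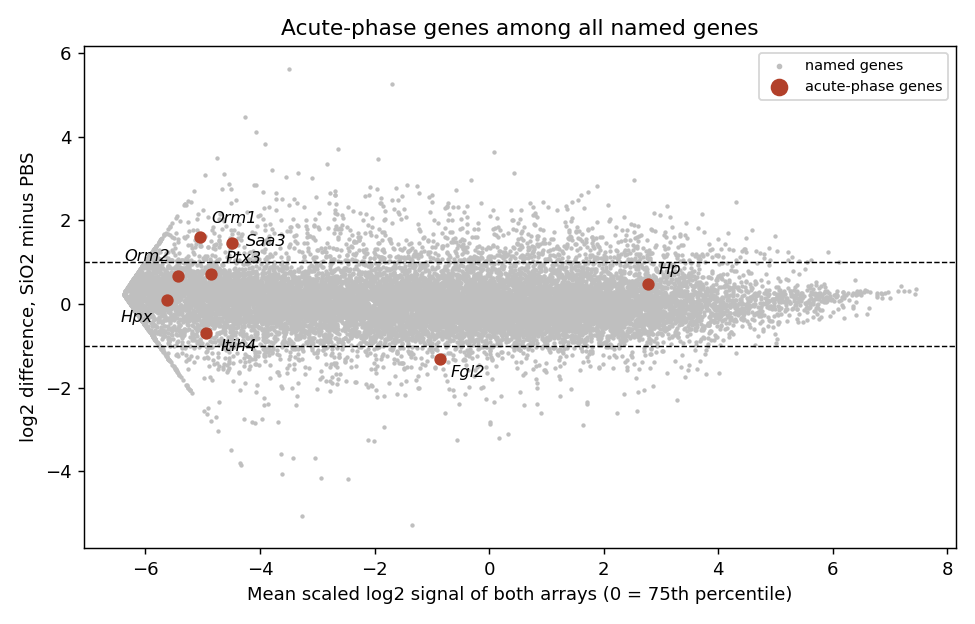
Log2 difference (SiO2 minus PBS) against the mean scaled log2 signal of both arrays (0 is the 75th percentile) for the 16774 named genes (grey) and the 8 acute-phase genes (red), with dashed lines at 2-fold. Orm1 (1.60) and Saa3 (1.47) lie above the upper line at the dim left end, Fgl2 (-1.31) lies below the lower line, and Hp (0.47) is the member with the highest mean signal.

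**Figure D3:**
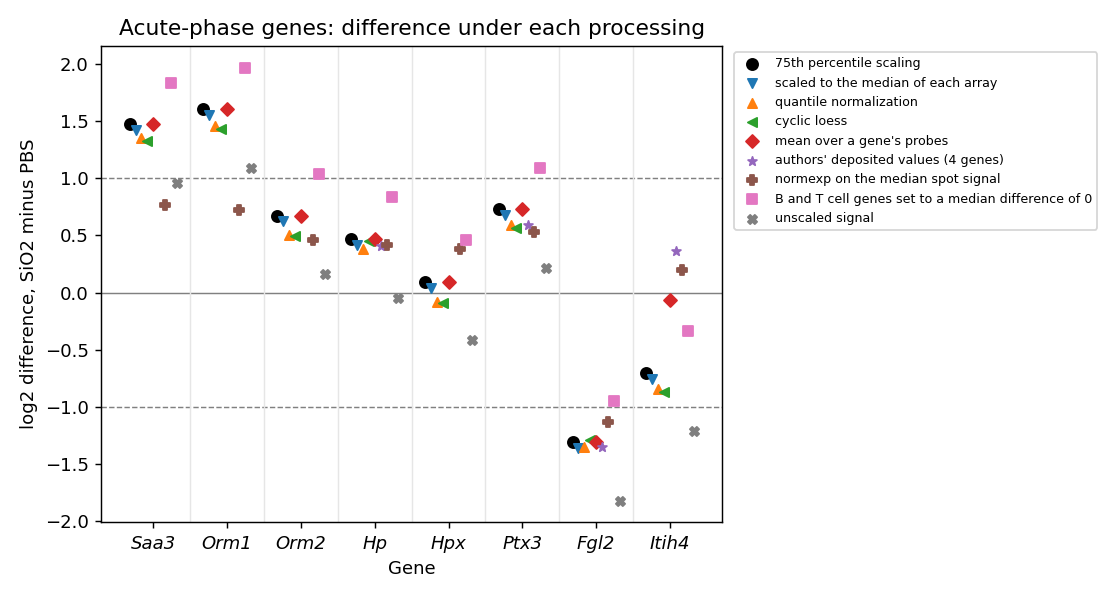
Log2 difference (SiO2 minus PBS) of each acute-phase gene under the 75th percentile scaling (black circles) and 8 alternatives (other markers; the authors' deposited table holds 4 genes), with dashed lines at 2-fold; the ninth alternative, no background filter, is not drawn because it left every value as it was. Saa3 and Orm1 drop under 2-fold with normexp (0.77 and 0.72), Fgl2 stays below 0 throughout (-1.82 to -0.94), and the points of Hp, Hpx and Itih4 fall on both sides of 0.

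Beyond the 8 members, a list of 31 further acute-phase genes had 24 above background. Past 2-fold, 2 of these were higher and 2 lower, and their median was -0.10. The sign of that median turned with the processing, to 0.22 with normexp and 0.26 with B and T cell genes set to 0. Over all named genes the median also moved in these settings, to 0.17 and 0.39. Lcn2, the iron-scavenging lipocalin of neutrophils and liver, was 5.46-fold higher, with a signal of 2102 in the SiO2 pool and 550 in the PBS pool. Lbp, which carries bacterial lipopolysaccharide to CD14, was 2.77-fold higher at a dim signal of 23.7 in the SiO2 pool and 12.2 in the PBS pool. Without scaling the Lbp difference was 0.96 on the log2 scale, under 2-fold. Cfb, a protease of the alternative complement pathway, was 2.37-fold lower, with 1516 in the SiO2 pool and 5135 in the PBS pool. Steap4, a metalloreductase induced by inflammation, was at least 2.30-fold lower, with a signal in the SiO2 pool that was not well above background. The fibrinogen chains Fga and Fgb were at 0.08 and 0.26, and C3, the central complement component, was at -0.72.

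The cytokines that induce acute-phase genes and their receptors held 17 genes, of which 0 were higher and 2 lower by 2-fold or more, at a median of -0.31. Il1b was 3.48-fold lower, with a signal of 595 in the SiO2 pool and 2956 in the PBS pool, and Tnfrsf1a, a receptor of tumour necrosis factor, was 2.06-fold lower. Il6 had a difference of -0.82 at a signal of 7.35 in the SiO2 pool and 18.6 in the PBS pool, and Tnf was at -0.37. With normexp correction the cytokine median lay at -0.02, beside 0.17 over all named genes.

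Among 21 genes of STAT3, C/EBP and NF-kB signalling, 1 was higher and 4 were lower by 2-fold or more, at a median of -0.41. Cebpe, the C/EBP factor of neutrophil granule genes, was 4.22-fold higher, with a signal of 1712 in the SiO2 pool and 579 in the PBS pool. The other family members Cebpa, Cebpb and Cebpd lay at 0.27, -0.51 and -0.73. Socs1, a feedback inhibitor of cytokine signalling, was 4.57-fold lower and the NF-kB cofactor Bcl3 2.32-fold lower. Stat3 itself was at -0.84 and its target Socs3 at -0.66. Of 17 receptors and partners of the members 0 were higher and 2 were lower by 2-fold or more, Tnfaip6 and Tlr4, at a median of -0.40. Tlr4, a receptor that serum amyloid A can engage, was 2.02-fold lower.

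Markers of cell types that can make acute-phase proteins were measured beside the members. Among 20 genes of the neutrophil granule list, which also holds receptors such as Cxcr2 and Csf3r, 14 were higher by 2-fold or more and 0 were lower. Their median was 1.59, with a summed scaled signal of 292 in the SiO2 pool and 154 in the PBS pool. Ngp was 8.77-fold higher, the iron-binding protein Ltf 7.80-fold and Itgb2l 6.14-fold. This list also holds Lcn2. Its genes were not uniformly higher, with S100a9 at 0.39, Csf3r at 0.13 and Cxcr2, the 1 gene below 0, at -0.80. Among 13 genes of lipid-laden phagocytes 8 were higher by 2-fold or more and 0 were lower, at a median of 1.14. Atp6v0d2 was at least 49.5-fold higher, Gpnmb 38.5-fold and Spp1 14.1-fold. Mesothelial genes, which mark the covering of the organ, were lower by 2-fold or more in 10 of 12 cases. Their median was -3.59, with a summed scaled signal of 1.39 in the SiO2 pool and 10.2 in the PBS pool, and Msln was 39.4-fold lower. With normexp that median was -1.39, and 4 of the 12 genes were at the lowest value above background in the SiO2 pool, so their differences are bounds. The part of these cells in the values of Saa3, Orm1, Hp and Ptx3 was not tested.

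Most hepatocyte secreted genes gave little signal in either pool. Of 18 on the arrays 14 were above background on at least 1 array and 8 of these had no signal over 40. Ttr, Apoa1 and Apoh were among those above background on neither array. The apolipoprotein Apoa2 and the iron carrier Trf were bright, at 9014 and 4753 in the SiO2 pool and 14947 and 13209 in the PBS pool, with differences of -0.22 and -0.96. Alb, albumin, had a signal of 32.8 in the SiO2 pool and 61.1 in the PBS pool, a difference of -0.39. In this list 0 genes were higher and 1 was lower by 2-fold or more, at a median of -0.13. That median was 0.17 with normexp and 0.23 with B and T cell genes set to 0, beside 0.17 and 0.39 over all named genes. In the authors' deposited table, which leaves 9 of these 14 genes, the median of the list was -0.49. The lower one was Rbp4, the retinol carrier, at 2.37-fold, with a signal of 8.25 in the SiO2 pool and 27.9 in the PBS pool.

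**Figure D4:**
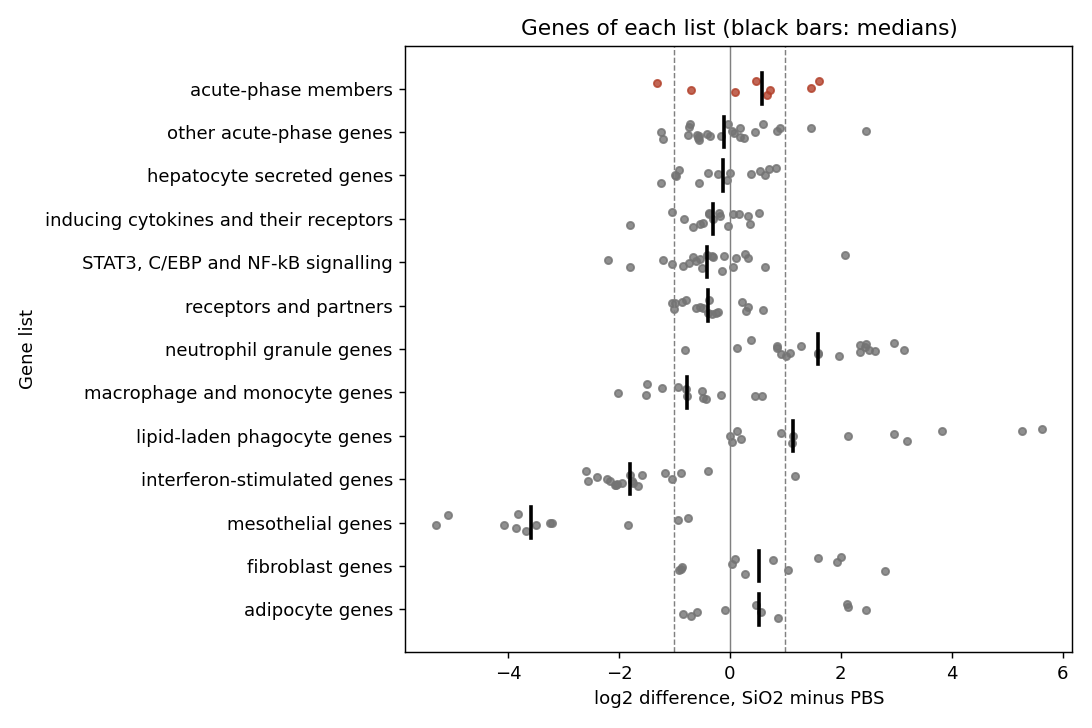
Log2 difference (SiO2 minus PBS) of each gene above background on at least 1 array, by list, with black bars at the medians and dashed lines at 2-fold. The acute-phase members (red) spread from -1.31 to 1.60 around a median of 0.57, while neutrophil granule genes (median 1.59) lie mostly above and interferon-stimulated genes (median -1.80) mostly below 0.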

How the data were processed

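RNA of 2 pools was hybridised in Cy3, 1 array each, and both arrays were read in 1 scan, so array position and group cannot be told apart. The authors deposited scanner files with linear intensity, background-subtracted by Agilent Feature Extraction 11.0.1.1 per the file headers (9.1 per the submitters' processing notes), and log2 values for 26049 probes, with no statement of their normalization in the labels or headers. The medians of those columns were 5.68 for SiO2 and 5.68 for PBS.

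From these, control spots and outlier spots (148 on the SiO2 array, 145 on the PBS array) were left out, spots of a probe averaged, and the signal of an array divided by its 75th percentile before log2 was taken. The share of spots well above background was 74.9% for SiO2 and 75.5% for PBS. Accessions were matched to RefSeq GRCm38.p6 names, which named 27217 of 39398 probes (69.1%). A gene took its brightest probe above background on at least 1 array. Where a probe was not well above background on an array, the higher of its own signal and the lowest signal above background was used there, and the fold is written as at least. Genes were called at 2-fold, with no p-value. Named were all members, family neighbours, other acute-phase genes past 2-fold, and up to 3 genes per direction of each of 16 lists; genes of the pathway lists within 2-fold were named beyond that rule, after their values were seen. Some genes that the rule takes are not reported here. Members and lists were chosen with earlier results of these data known. Alternatives used limma 3.58.1 in R 4.3.3.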

Additional observations from a re-analysis of the deposited data

How the results depend on the processing

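Median scaling, quantile normalization, cyclic loess, no background filter and the mean over probes each left 2 members higher and 1 lower by 2-fold or more. In the authors' deposited values, which hold 4 of the 8 members, 0 were higher and 1 lower, and Saa3 and Orm1 are not among the 4. Outside the plan as run were 3 further settings. Normexp had been planned on another signal column, and the others were chosen after seeing the data. With normexp, 0 members were past 2-fold upward and 1 downward. With B and T cell genes set to a median difference of 0 (a shift of all genes to a median of 0.39), 4 were higher (Saa3, Orm1, Orm2 and Ptx3) and 0 lower, and the median of the members was 0.93. With unscaled signal (median of all genes -0.48), 1 was higher and 2 lower, and the median was 0.058. Of the 15 lists other than control genes, 5 had a median above 0, 6 with the mean over probes, 7 with normexp and 9 with B and T cell genes at 0. With normexp 3.86% of all genes were higher by 2-fold or more, with unscaled signal 2.43%, and with B and T cell genes at 0 14%. The shares lower by 2-fold or more were 1.57%, 16.1% and 1.62% in the same order. In the authors' deposited values 5.77% of genes were higher and 4.71% lower. With the settings named first, 5.72% to 8.03% were higher and 3.35% to 4.38% lower. Normexp used the median spot signal, since the planned mean was not in the columns used here. No paired analysis was possible because each group has 1 array. Signal near background limits Saa3, Orm1, Orm2, Hpx, Ptx3 and Itih4.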

Other observations

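Other cell type lists, not tied to a member above, gave these values. Among 12 fibroblast genes 5 were higher and 0 lower by 2-fold or more, at a median of 0.52. The matrix proteoglycan Lum was 6.96-fold, periostin, Postn, 4.02-fold and Col3a1 3.82-fold higher. Among 10 adipocyte genes 3 were higher by 2-fold or more, at a median of 0.52. In the authors' deposited values, which leave 8 of the 10 genes, the median was 0.10. Of these 10 genes 4 were below 0, among them Retn at -0.85 and Pparg at -0.69. Fabp4, 4.39-fold higher, is also in the list of lipid-laden phagocytes. The adipokine Adipoq was at least 4.31-fold higher, at a signal of 22.3 in the SiO2 pool and 6.88, not well above background, in the PBS pool. B cell genes had a median of -0.48, with 1 of 12, Cd24a at 2.19-fold, higher by 2-fold or more and 0 lower. T cell genes had a median of -0.27, with 0 of 12 past 2-fold. The control genes Gapdh, Actb and Hprt lay at 0.28, -0.25 and 0.14.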
